A study of Drosophila melanogaster with 6 samples.

Results

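The cytoplasmic ribosomal protein genes of Drosophila melanogaster were followed through testes in which Pcf11 or cbc had been knocked down. Genes were taken by symbol: those beginning with RpL or RpS and a digit or capital letter were kept, and 9 testis-enriched paralogs (RpL22-like, RpS5b, RpS19b, RpS28a, RpS28-like, RpL10Aa, RpS10a, RpL37b and RpS15Ab) were set aside. This left 83 of the 17807 genes counted, and 82 of them passed the filter on low counts, 32 with RpS symbols and 50 with RpL symbols. The gene that did not pass, RpL7-like, had 0 sense counts in 4 libraries and 2 in the other, and its locus overlaps CG34164 on the same strand, where shared reads go uncounted. The symbol rule misses sta, which encodes the small subunit protein RpSA, and takes in RpL24-like, RpL7-like and RpLP0-like, whose yeast relatives are ribosome assembly factors.

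Whole testes of 3 genotypes were sequenced as polyadenylated RNA, from 150 pairs of testes per library. The control carried the driver bamGal4 alone, with no hairpin. The Pcf11 knockdown was bamGal4>PCf11KD (VDRC 103710) and the cbc knockdown was bamGal4>cbcKD (BL 77426). In all 3 genotypes crosses stood at 25 °C for 3 days and the progeny were then kept at 29 °C. The bam driver acts in germ cells as spermatogonia turn into spermatocytes, so muscle, hub and cyst cells in the same testes are not its target. Gene counts of 2 control libraries, 2 cbc libraries and 1 Pcf11 library (library 2) were used. Nothing in the labels tells whether libraries of 1 genotype are separate cultures, and the p-values describe the spread among these libraries, possibly a technical one.

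Each ribosome holds a small subunit, which reads the mRNA, and a large subunit, which forms the peptide bond, and most ribosomal proteins are present at a single copy per ribosome. Cells therefore make the proteins in balanced amounts, and in animals their mRNAs begin with a pyrimidine tract, through which TOR signalling controls their translation. Pcf11 is a subunit of the cleavage and polyadenylation machinery that ends transcripts. The protein of cbc, the fly relative of human CLP1, belongs to the same complex. In male germ cells growth and much of transcription take place before meiosis, and spermatids rely largely on stored mRNA.

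Sense gene counts came to 76132580 and 73600622 for the controls, 79053532 for the Pcf11 library, and 18954932 and 20510200 for cbc knockdown. Pcf11 itself stood at 49.9 and 54.7 CPM (counts per 1e+06, with TMM scaling of the libraries) in the controls, 24.2 with Pcf11 knockdown and 102 and 97.8 with cbc knockdown. The cbc gene stood at 52.4, 56.9, 63.8, 4.04 and 3.20 CPM in the same order, so each knockdown lowered its own target. Depth and the style of the library titles changed together with genotype between the cbc libraries and the rest, and these cannot be told apart from the cbc knockdown.

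In control testes the 82 genes were highly expressed. Their mean control level ran from 16.3 to 613 CPM with a median of 285 CPM, and 68 of them lay between 200 and 500 CPM. The median member exceeded 94.6% of all genes tested, yet 228 genes stood above the highest member. Per kilobase of annotated exon the control level ran from 17.2 to 1915 CPM with a median of 307 CPM. The order per kilobase began with RpL41 at 1915 CPM, which encodes the shortest ribosomal protein, followed by RpL39 at 765, RpL27A at 748, RpLP2 at 727 and RpL29 at 546 CPM. It ended with RpL34a at 93.4, RpL24-like at 86.9, RpS14b at 81.5, RpL22 at 78.3 and RpLP0-like at 17.2 CPM per kilobase. The lowest 5 thus include both -like genes tested, 1 gene of each of the RpL34 and RpS14 copy pairs, and RpL22, whose relative RpL22-like is testis-enriched.

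The members were short genes, with a median of 922 exonic bases against 1856 for the other 12068 coding genes tested. Both sets had a median of 2 introns. The longest annotated 3′ untranslated region had a median of 195 bases in the members and 233 in the other coding genes, and 48 members had more than 1 annotated 3′ end length. SnoRNA genes lie inside 28 members, 74 in all. The genes are spread over the genome, with 18 on 2L, 18 on 2R, 14 on 3L, 18 on 3R, 14 on X and 1, RpS3A, on chromosome 4.

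In the Pcf11 library the ribosomal protein genes took a smaller share of the RNA than in any other library. Of all gene counts they made up 2.22% and 2.48% in control testes, 1.04% with Pcf11 knockdown, and 2.44% and 2.10% with cbc knockdown. The Pcf11 value lay far below both controls and both cbc libraries, and the control and cbc values overlapped. The 95% Wilson intervals, which cover counting error only, ran from 2.21% to 2.22% and from 2.47% to 2.48% in the controls, so these differed by more than counting error. After TMM scaling the summed level of the 82 genes tested was 23416 and 24867 CPM in the controls, 13035 with Pcf11 knockdown and 20973 and 18369 with cbc knockdown. In whole testes, fewer cells of a type and less RNA per cell cannot be told apart.

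**Figure D1:**
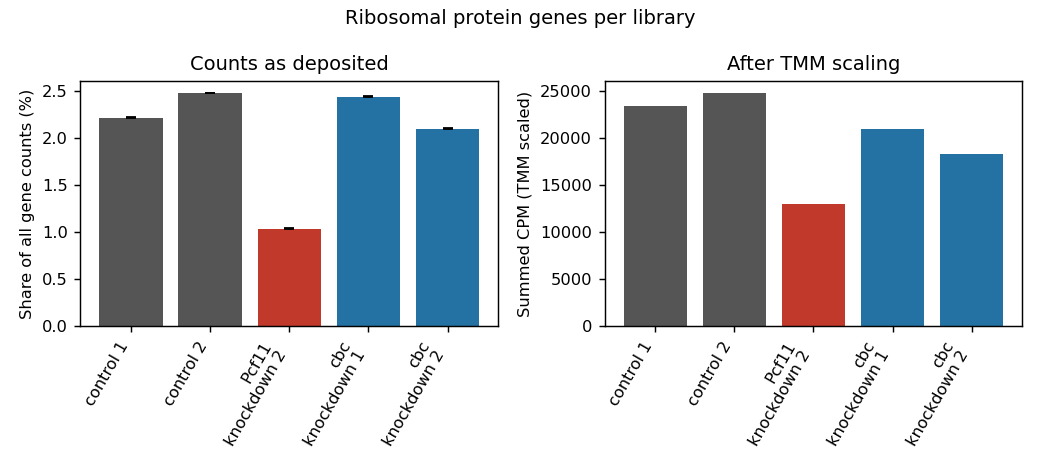
Share of all gene counts taken by the 83 ribosomal protein genes in each library (left, %, bars from 0 with 95% Wilson intervals for counting error). On the right is the summed CPM after TMM scaling of the 82 that passed the filter on low counts. The Pcf11 library, at 1.04% and 13035 CPM, is the lowest in both panels, while the cbc libraries overlap the controls in share and lie below them after scaling.

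Each gene was then tested with the quasi-likelihood test of edgeR over all 13960 genes, with Benjamini-Hochberg adjustment and a threshold of 0.05. Against the controls, 80 of the 82 members were lower in the Pcf11 library and 0 were higher. Over all genes 36.4% were lower and 32.6% higher, so the members' count stood above the background. The members' median log2 fold change was -0.90 and their range -1.88 to -0.03, beside a median of -0.06 for all genes tested. The Pcf11 library lay below both controls for 81 members, beside 48.8% of all genes. The lower quartile of the log2 fold change was -1.31 for the members and -0.85 for all genes tested. The result rests on 1 library, whose spread the model takes from the other libraries.

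In the cbc libraries 52 members were lower and 3 higher than in the controls with TMM scaling, beside 37.8% lower and 36.3% higher over all genes. The median was -0.32 and the range -1.07 to 0.54, beside -0.02 for all genes tested. Both cbc libraries lay below both controls for 60 members (44.6% of all genes) and above both for 4 (43.1%), while 18 members overlapped. The comparisons of Pcf11 and of cbc share the control libraries, so their values for a gene are not independent.

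The direct test of the difference between the knockdowns placed 73 members higher in the cbc libraries than in the Pcf11 library and 1 lower, beside 42.2% higher and 29.7% lower over all genes. The median difference was 0.63 on the log2 scale, beside 0.27 for all genes. The Pcf11 library lay below both cbc libraries for 79 members, beside 55% of all genes. The members above at least 1 cbc library were RpL41, RpS14b and RpS29, and this set was named after its values were seen.

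**Figure D2:**
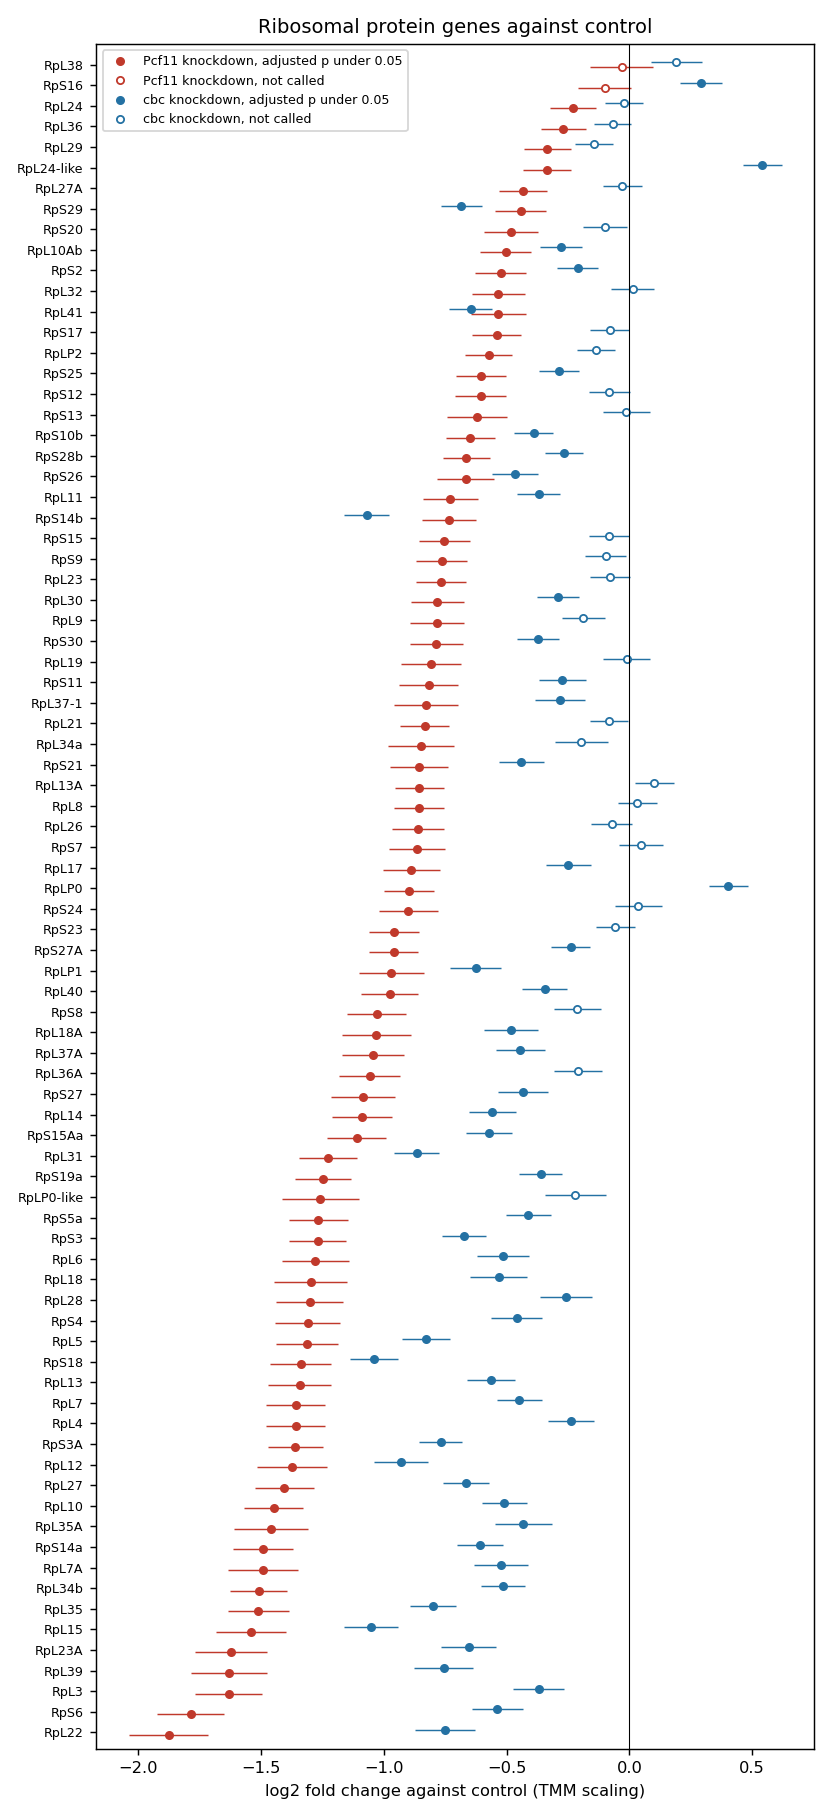
Log2 fold change against control (TMM scaling) of the 82 tested ribosomal protein genes, ordered by the Pcf11 value, with the standard error of the fit as bars. Filled points passed the edgeR test at 0.05 and open points did not. Of the red points (Pcf11 library) 80 are filled and all 82 lie below 0, while the blue points (cbc libraries) run from -1.07 to 0.54 around a median of -0.32, which becomes -0.03 when scaled on genes of equal control CPM, and 31 of them take another sign under at least 1 of 5 scalings.

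Since highly expressed genes as a whole moved in these testes, each member was set beside the other genes with a mean control log2 CPM within 0.5 of its own, 262 to 1755 genes per member. For the Pcf11 library the median log2 change of such genes, taken over the members' windows, was 0.48, and all 82 members lay below their window median. The median gap was -1.36 and it ran from -2.25 to -0.38. The median member stood at the 9.64th percentile of its window, 44 members stood under the 10th and 79 under the 25th. Among genes at 200 to 300 control CPM, 33 of 34 members were lower in the Pcf11 library, whereas 17.9% of the 397 other genes were lower and 62.2% were higher. At 400 to 700 CPM all 17 members were lower, beside 13.1% of 259 other genes.

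In the cbc libraries the members lay on both sides of genes of equal control CPM. The median over the windows was -0.33 there, 42 members lay below their window median and 40 above, and the median gap was -0.04. The members' percentiles ran from 15.3 to 88.6 with a median of 47.9. At 200 to 300 control CPM 23 of 34 members were lower (median -0.37), beside 55.2% of the other genes (median -0.28). At 400 to 700 CPM 11 of 17 were lower (median -0.28), beside 64.1% of the others (median -0.39). Without cbc library 2 the number below the window median was 28, and without cbc library 1 it was 50.

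**Figure D3:**
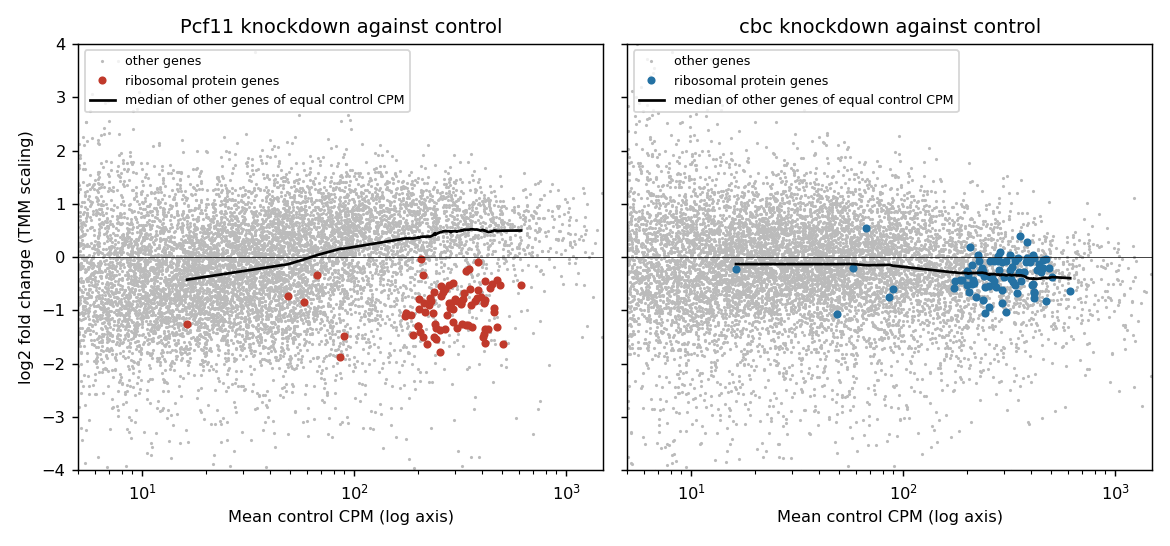
Log2 fold change (TMM scaling) against mean control CPM (log axis) for the ribosomal protein genes (coloured) and the other genes tested (grey), with the median of other genes within 0.5 log2 of each member's control CPM as a line. In the Pcf11 panel all 82 members lie below the line, and in the cbc panel 42 lie below and 40 above.

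A second fit was scaled only on the 2098 other genes within the members' range of control CPM (83.9 to 457 CPM, the 5th to 95th percentile of the members). It tests each gene against that whole range and not against the gene's own window. At 100 to 200 control CPM stood 1056 other genes but 6 members, so the range is weighted to lower levels than the members. The second fit moved the median of all genes to -0.34 for the Pcf11 library and to 0.27 for the cbc libraries. With it, 82 of 82 members were lower in the Pcf11 library (46.1% of all genes) and 0 higher (23.9%), with a median of -1.18. For the cbc libraries 22 were lower (27% of all genes), 21 were higher (47.3%) and 39 passed in neither direction, with a median of -0.03. Between the knockdowns 81 members were higher in the cbc libraries (62% of all genes) and 0 lower (16.9%), with a median difference of 1.20. The sign of the cbc change depended on the scaling for 31 members. Over 5 scalings 22 members were lower in the cbc libraries under each and 3 were higher under each. For the Pcf11 library 76 were lower under each of the 5 and 2 changed sign.

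**Figure D4:**
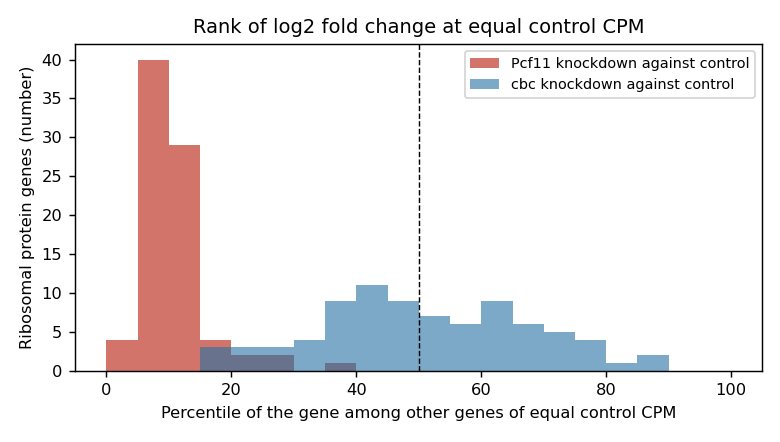
Number of ribosomal protein genes by the percentile of their log2 fold change among other genes of equal control CPM, in bins of 5 percentiles, for the Pcf11 library (red) and the cbc libraries (blue). The dashed line marks the window median. The Pcf11 values run from 3.46 to 36.1, with a median of 9.64, and the cbc values spread from 15.3 to 88.6 around a median of 47.9.

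For single genes, a pair of log2 changes against control gives Pcf11 first and cbc second, with TMM scaling, and "at equal CPM" marks the value scaled on genes of equal control CPM. Standard errors of the members ran from 0.09 to 0.16 for Pcf11 and from 0.08 to 0.13 for cbc, and all adjusted p-values are from edgeR. Counts by role stand beside 80 of all 82 members lower in the Pcf11 library and 52 in the cbc libraries, or 22 at equal CPM. Over all genes these shares were 36.4%, 37.8% and 27%.

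Among the proteins that line the path of the mRNA into the small subunit, RpS3, RpS2 and RpS30 were all lower in the Pcf11 library. RpS3, which also has a DNA repair activity, stood at 339 and 349 CPM in the controls, 143 with Pcf11 knockdown and 233 and 199 with cbc knockdown. Both knockdowns lay below both controls, and it fell by 1.27 (SE 0.12, adjusted p = 1.8e-06) in the Pcf11 library and by 0.67 (SE 0.09, adjusted p = 3.1e-05) in the cbc libraries on the log2 scale. RpS2, the gene known as string of pearls in fly oogenesis, had 464 and 515 CPM in the controls, 340.4 with Pcf11 knockdown and 437 and 409 with cbc knockdown, a Pcf11 change of -0.52 and a cbc change of -0.21 that became 0.08 at equal CPM. RpS30, made as a fusion to a ubiquitin-like protein, changed by -0.79 and -0.37, and its cbc value was -0.08 at equal CPM.

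At the mRNA exit, RpS3A, RpS14a, RpS14b, RpS26 and RpS28b were all called lower in both knockdowns with TMM scaling, and 3 of these 5 were also lower in the cbc libraries at equal CPM. RpS14a and RpS14b are neighbouring genes for the same protein, and reads that fit both are not counted as unique, so the split between them is uncertain. RpS14a stood at 87.6 and 91.5 CPM in the controls, 31.9 with Pcf11 knockdown and 63.8 and 53.8 with cbc knockdown. RpS14b stood at 48.7 and 48.6 CPM in the controls, 29.2 with Pcf11 knockdown and 24.3 and 22.1 with cbc knockdown. The lowest library differed between the copies: RpS14a was lowest in the Pcf11 library and RpS14b in the cbc libraries. RpS14b fell by 1.07 (SE 0.09, adjusted p = 7.2e-07) with cbc knockdown, the lowest cbc value of all members, and was the member lower in the cbc libraries than in the Pcf11 library (-0.34, adjusted p = 0.0165). At equal CPM that difference was 0.23 (adjusted p = 0.0925). RpS3A had 434 and 399 CPM in the controls, 162 with Pcf11 knockdown and 259 and 230.2 with cbc knockdown and changed by -1.36 and -0.77. RpS26 changed by -0.67 and -0.47 (-0.18 at equal CPM), and RpS28b by -0.66 and -0.26 (0.02).

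In the beak of the small subunit 3 of 3 members were lower in the Pcf11 library and 2 of 3 in the cbc libraries with TMM scaling. RpS10b changed by -0.65 in the Pcf11 library and -0.39 in the cbc libraries, the latter -0.10 at equal CPM. RpS12, which in flies takes part in competition between cells that differ in ribosomal protein dose, stood at 252 and 285 CPM in the controls, 177 with Pcf11 knockdown and 256 and 252 with cbc knockdown. The Pcf11 library lay below both controls and the cbc libraries reached the lower control, with a Pcf11 change of -0.61 (adjusted p = 2.8e-04), and the cbc change was -0.08 (adjusted p = 0.383). RpS27A, made as a fusion to ubiquitin, changed by -0.96 and -0.24 (0.05 at equal CPM), and it overlaps Ip259 on the same strand. The other ubiquitin fusion, RpL40 of the large subunit, changed by -0.98 and -0.35 (-0.06 at equal CPM).

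RpS6, the target of S6 kinase downstream of TOR, was among the members with the lowest Pcf11 values. It stood at 239 and 268 CPM in the controls, 73.5 with Pcf11 knockdown and 193 and 157 with cbc knockdown. The Pcf11 library lay below every other library, at -1.79 (SE 0.14, adjusted p = 5.7e-07), and the cbc change was -0.54 (adjusted p = 5.6e-04), or -0.25 at equal CPM (adjusted p = 0.0544). The gene CR33222 overlaps it on the same strand. RpS18, in the head of the small subunit, stood at 297 and 313 CPM in the controls, 121 with Pcf11 knockdown and 163 and 134 with cbc knockdown and was low in both knockdowns, at -1.34 and -1.04 (adjusted p = 1.6e-06). At equal CPM its cbc change was -0.75 (adjusted p = 2.8e-05).

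RpS16, whose tail reaches the tRNA in the peptidyl site, was higher in the cbc libraries. It stood at 369 and 397 CPM in the controls, 357 with Pcf11 knockdown and 498 and 439 with cbc knockdown. Both cbc libraries lay above both controls, at 0.29 (SE 0.09, adjusted p = 0.00983), and its Pcf11 change of -0.10 did not pass (adjusted p = 0.415). With the equal CPM scaling the Pcf11 change was -0.38 (adjusted p = 0.00824). The other member not called in the Pcf11 library was RpL38, a small protein of the large subunit, at 230.0 and 182 CPM in the controls, 201 with Pcf11 knockdown and 229.8 and 240.1 with cbc knockdown. Its controls differed by more than the Pcf11 library did from either, and its change of -0.03 (adjusted p = 0.838) was -0.31 at equal CPM (adjusted p = 0.0389). RpL38 was named after its values were seen.

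Around the peptidyl transferase centre of the large subunit, RpL3, RpL8 and RpL10 were all lower in the Pcf11 library. RpL3, whose loop reaches the centre itself, stood at 472 and 537 CPM in the controls, 163 with Pcf11 knockdown and 428 and 352 with cbc knockdown. It fell by 1.63 (SE 0.14, adjusted p = 1.0e-06) in the Pcf11 library and stood at the lowest percentile of any member in its window, 3.46. Its cbc change was -0.37 and became -0.08 at equal CPM. RpL10, which joins the subunit late in its assembly, changed by -1.45 and -0.51 (-0.22 at equal CPM, adjusted p = 0.0475). RpL8 had 313 and 327 CPM in the controls, 177 with Pcf11 knockdown and 340.3 and 315 with cbc knockdown, so it was low in the Pcf11 library alone (-0.86), and its cbc change of 0.03 did not pass with TMM scaling (adjusted p = 0.721) but did at equal CPM, upward (0.32, adjusted p = 0.00301).

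RpL5 and RpL11, which carry the 5S rRNA into the ribosome, were lower in both knockdowns with TMM scaling. RpL5 stood at 466 and 475 CPM in the controls, 189 with Pcf11 knockdown and 292 and 238 with cbc knockdown and changed by -1.31 and -0.83, the latter -0.54 at equal CPM (adjusted p = 3.5e-04). RpL11 changed by -0.73 and -0.37, and its cbc change was -0.08 at equal CPM (adjusted p = 0.446).

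In the stalk, which recruits translation factors, the 3 proteins were lower in the Pcf11 library, while in the cbc libraries 1 was higher, 1 lower and 1 not called. RpLP0, the stalk's base protein, stood at 346 and 366 CPM in the controls, 191 with Pcf11 knockdown and 487 and 455 with cbc knockdown. Both cbc libraries lay above both controls and the Pcf11 library far below, with changes of 0.40 (SE 0.08, adjusted p = 6.6e-04) and -0.90 (SE 0.10, adjusted p = 9.8e-06). The difference between the knockdowns was 1.30 (SE 0.10, adjusted p = 7.2e-07), the highest of all members. RpLP1 stood at 286 and 297 CPM in the controls, 149 with Pcf11 knockdown and 211 and 167 with cbc knockdown and was lower in both, at -0.97 and -0.63 (-0.33 at equal CPM, adjusted p = 0.0133). RpLP2, its partner, had 434 and 444 CPM in the controls, 295 with Pcf11 knockdown and 413 and 387 with cbc knockdown, a Pcf11 change of -0.57 and a cbc change of -0.14 that did not pass (adjusted p = 0.134). RpL12, at the foot of the stalk, changed by -1.37 and -0.93 (-0.64 at equal CPM).

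The 7 proteins around the exit of the peptide tunnel were all lower in the Pcf11 library, by 0.81 to 1.63, and 5 of them were lower in the cbc libraries with TMM scaling. RpL23A, a docking site for factors that meet the nascent chain, stood at 381 and 448 CPM in the controls, 135 with Pcf11 knockdown and 292 and 235 with cbc knockdown, with changes of -1.62 and -0.65. The host gene Uhg7 overlaps it on the same strand. RpL39, which lines the tunnel, stood at 210.2 and 230.2 CPM in the controls, 71.2 with Pcf11 knockdown and 149 and 111 with cbc knockdown and changed by -1.63 and -0.76, and it overlaps RpL12 on the opposite strand. RpL31 changed by -1.23 and -0.87, and RpL35 by -1.51 and -0.80. These 4 were also lower in the cbc libraries at equal CPM, by 0.36 (RpL23A), 0.47 (RpL39), 0.58 (RpL31) and 0.51 (RpL35). RpL17 changed by -0.89 and -0.25, and the latter was 0.04 at equal CPM. RpL19 and RpL26 had cbc changes of -0.01 and -0.07 that did not pass with TMM scaling and were 0.28 and 0.22 at equal CPM (adjusted p = 0.0226 and 0.0349).

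Elsewhere in the large subunit, RpL22 had the lowest Pcf11 value of all members. RpL22 stood at 81.7 and 90.5 CPM in the controls, 23.5 with Pcf11 knockdown and 58.9 and 43.6 with cbc knockdown, with the Pcf11 library lowest and no overlap between any groups. It fell by 1.88 (SE 0.16, adjusted p = 1.3e-06) in the Pcf11 library and by 0.75 (SE 0.12, adjusted p = 1.6e-04) in the cbc libraries, and the lncRNA gene CR42491 overlaps it on the same strand. RpL15, a protein deep in the rRNA core, stood at 259 and 229 CPM in the controls, 83.9 with Pcf11 knockdown and 131 and 104 with cbc knockdown, with changes of -1.54 and -1.05 (-0.76 at equal CPM). RpL4, which narrows the peptide tunnel, changed by -1.36 in the Pcf11 library and -0.24 in the cbc libraries, the latter 0.05 at equal CPM. RpL41, which bridges the subunits, stood at 602 and 624 CPM in the controls, 423 with Pcf11 knockdown and 421 and 362 with cbc knockdown, so all knockdown libraries lay below the controls and the Pcf11 library just above the higher cbc library.

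The smallest falls called in the Pcf11 library were those of RpL24 (-0.23, adjusted p = 0.0481), RpL36 (-0.27, adjusted p = 0.0222), RpL29 (-0.33, adjusted p = 0.00772), RpL24-like (-0.34, adjusted p = 0.00885) and RpL27A (-0.43, adjusted p = 0.00216). RpL24, a bridge to the small subunit, stood at 344 and 353 CPM in the controls, 297 with Pcf11 knockdown and 353 and 333 with cbc knockdown, so the cbc libraries overlapped the controls and the Pcf11 library lay below them. The cbc changes of RpL24, RpL36, RpL29 and RpL27A lay between -0.14 and -0.02 and none passed with TMM scaling. At equal CPM RpL24, RpL36 and RpL27A were higher in the cbc libraries, at 0.27, 0.22 and 0.26.

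**Figure D5:**
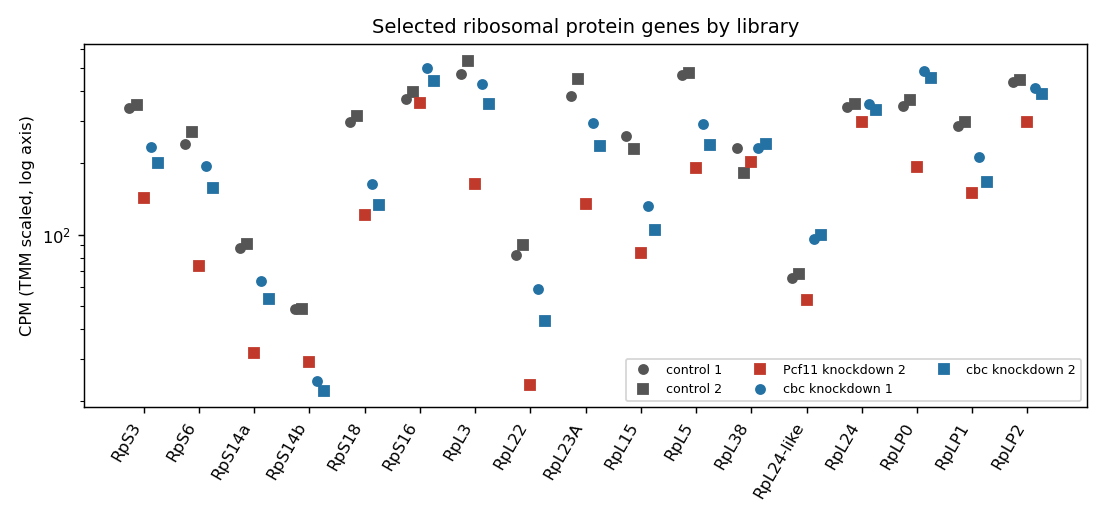
TMM-scaled CPM (log axis) of 17 ribosomal protein genes in each of the 5 libraries, 1 point per library. For most genes the Pcf11 library (red) is the lowest, RpS14b has the cbc libraries (blue) lowest, and RpS16, RpLP0 and RpL24-like have the cbc libraries above both controls.

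Both tested genes with an assembly-factor relative were called lower in the Pcf11 library. RpL24-like, whose yeast relative Rlp24 holds the place of RpL24 during assembly, stood at 65.7 and 68.6 CPM in the controls, 53.2 with Pcf11 knockdown and 95.6 and 99.9 with cbc knockdown. Its cbc change of 0.54 (SE 0.08, adjusted p = 6.7e-05) was the highest of all members. RpLP0-like, relative of yeast Mrt4, stood at 16.2 and 16.4 CPM in the controls, 6.81 with Pcf11 knockdown and 15.5 and 12.4 with cbc knockdown, with a Pcf11 change of -1.26 (adjusted p = 2.4e-05) and, with both cbc libraries below both controls, a cbc value of -0.22 that did not pass (adjusted p = 0.131). Of the RpL34 copies, RpL34b stood at 202 and 223 CPM in the controls, 74.5 with Pcf11 knockdown and 158 and 139.6 with cbc knockdown and changed by -1.51 and -0.51. RpL34a stood at 53.4 and 62.5 CPM in the controls, 32.2 with Pcf11 knockdown and 55.1 and 46.2 with cbc knockdown. It changed by -0.85 in the Pcf11 library, and its cbc value of -0.20 did not pass (adjusted p = 0.118). Reads shared by the RpL34 copies are not counted, so their split is uncertain.

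The 8 canonical partners of the testis-enriched paralogs were all lower in both knockdowns with TMM scaling, beside 36.4% (Pcf11) and 37.8% (cbc) of all genes. At equal CPM 2 of the 8, RpL22 and RpS15Aa, were also lower in the cbc libraries. That stands near the 27% of all genes and the 22 of 82 members. RpS15Aa changed by -1.11 and -0.57, RpS5a by -1.27 and -0.41, and RpS19a by -1.25 and -0.36. RpL10Ab changed by -0.50 and -0.28, and RpL37-1, the annotation's name for the partner of RpL37b, by -0.83 and -0.28. At equal CPM the cbc values of RpS5a, RpS19a, RpL10Ab and RpL37-1 were -0.12, -0.07, 0.01 and 0.0065. Of the 9 paralogs themselves, 7 were lower and 1 higher in the Pcf11 library, beside 36.4% and 32.6% of all genes. In the cbc libraries 5 were lower and 0 higher (37.8% and 36.3% of all genes), or 4 lower and 4 higher at equal CPM (27% and 47.3%). The gene higher in the Pcf11 library was RpL10Aa, at 134 and 105 CPM in the controls, 325 with Pcf11 knockdown and 115 and 124 with cbc knockdown, a Pcf11 change of 1.44 (adjusted p = 1.3e-06) where RpL10Ab fell. RpS28a and RpS28-like had the lowest cbc values, -2.41 and -2.80, beside -0.26 for RpS28b, and changed by -1.32 and -1.19 in the Pcf11 library.

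By subunit, RpS genes had medians of -0.84 (Pcf11) and -0.32 (cbc), and RpL genes -1.003 and -0.32. By arm the Pcf11 median ran from -0.81 on 2R to -1.18 on X and the cbc median from -0.18 on 2R to -0.47 on X, with the single gene of chromosome 4, RpS3A, below both ranges. Across the 82 members, which share the same libraries, Spearman's correlation of exon length with the log2 change was -0.30 for Pcf11 and -0.08 for cbc, and that of the longest 3′ untranslated region was 0.01 and -0.04. Among themselves the members had an SD of 0.41 in the Pcf11 comparison, beside a median SD of 0.99 within the windows of genes of equal control CPM, and 0.32 beside 1.01 in the cbc comparison.

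Other genes of the translation machinery were read from the same fit. Of 9 elongation and release factors, 7 were lower and 1 higher in the Pcf11 library, beside 36.4% and 32.6% of all genes. In the cbc libraries 4 were lower and 0 higher, beside 37.8% and 36.3% of all genes. Equal CPM turned this to 2 lower and 3 higher, beside 27% and 47.3%. Those called included eEF1alpha1, which brings aminoacyl-tRNA to the ribosome, at 1674 and 1775 CPM in the controls, 555 with Pcf11 knockdown and 1241 and 1004 with cbc knockdown, with changes of -1.64 and -0.62. The translocase gene eEF2 changed by -1.30 and -0.38 (-0.09 at equal CPM). The release factor eRF3 was the higher one, at 0.62, and eRF1 had a cbc change of -1.33. Of 5 ribosome-associated proteins 3 were lower in the Pcf11 library and 1 in the cbc libraries, beside 36.4% and 37.8% of all genes. At equal CPM 0 were lower and 4 higher with cbc knockdown, beside 27% and 47.3%. The 40S scaffold Rack1 changed by -0.99 and -0.40 (-0.11 at equal CPM), and sta, the ribosomal protein gene that the symbol rule misses, stood at 414 and 454 CPM in the controls, 266 with Pcf11 knockdown and 502 and 456 with cbc knockdown, a Pcf11 change of -0.71 (adjusted p = 1.0e-04). Its cbc value of 0.14 did not pass (adjusted p = 0.154), and at equal CPM it was 0.43 (adjusted p = 7.0e-04).

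Of 26 initiation factors tested, 10 were higher and 7 lower in the Pcf11 library (median -0.04), near the shares over all genes of 32.6% and 36.4%. In the cbc libraries 7 were higher and 12 lower (median -0.18), beside 36.3% and 37.8%. The subunit joining factor eIF5B was higher in both, at 0.96 and 0.68, eIF5 was higher in the Pcf11 library (1.03) and eIF2gamma in the cbc libraries (0.59). The scaffold of the cap-binding complex, eIF4G1, was lower in both, at -1.41 and -0.73, as was eIF3d1, at -1.43 and -0.75. At equal CPM the counts became 6 higher and 15 lower for Pcf11, beside 23.9% and 46.1% of all genes. For cbc they became 12 higher and 6 lower, beside 47.3% and 27%.

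Of 30 ribosome biogenesis genes 19 were lower and 4 higher in the Pcf11 library (median -0.60), beside 36.4% and 32.6% of all genes. In the cbc libraries 14 were lower and 5 higher (median -0.07), beside 37.8% and 36.3%. The lowest in the Pcf11 library were Noc2 (-1.67) and the snoRNP gene nop5 (-1.56), and the highest was Rtc1 (0.82). In the cbc libraries mbm (-1.38) and vito (-1.11) were the lowest and Rtc1 (0.96) and Nnp-1 (0.67) the highest. At equal CPM the cbc counts turned to 13 higher and 7 lower, beside 47.3% and 27% of all genes. The Pcf11 counts became 1 higher and 22 lower, beside 23.9% and 46.1%. Of 9 RNA polymerase I genes 6 were lower and 0 higher in the Pcf11 library, beside 36.4% and 32.6% of all genes. The lower ones included Polr1B (-1.41) and Polr1H (-1.17). In the cbc libraries 4 were lower and 2 higher, beside 37.8% and 36.3% of all genes. The lower ones included Polr1H (-1.85) and Polr1C (-1.29), and the higher ones were TAF1C-like (0.79) and Polr1E (0.20). At equal CPM the cbc counts of these genes turned to 3 lower and 4 higher, beside 27% and 47.3% of all genes.

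Of 13 regulators tied to ribosomal protein genes, 10 were lower and 1 higher in the Pcf11 library (median -0.99), beside 36.4% and 32.6% of all genes. In the cbc libraries 6 were lower and 2 higher (median -0.21), beside 37.8% and 36.3%. At equal CPM the cbc counts were 5 lower and 4 higher, beside 27% and 47.3% of all genes. Myc, which drives growth and ribosome production, stood at 20.3 and 16.7 CPM in the controls, 6.39 with Pcf11 knockdown and 10.2 and 8.87 with cbc knockdown, with changes of -1.53 and -0.96, and its partner Max was the higher one in the Pcf11 library (0.69). Dref, a promoter-binding factor of growth genes, changed by -1.54 in the Pcf11 library (adjusted p = 1.5e-06) and had a cbc value of -0.10 (adjusted p = 0.419). Trf2, which acts at the TATA-less promoters of ribosomal protein genes in flies, was higher in the cbc libraries (0.80), as was M1BP (0.37). Thor, the fly 4E-BP that restrains cap-dependent translation, was lower in both, at -1.41 and -1.44.

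Levels of cell type markers also differed between the genotypes, and their part in the results on ribosomal protein genes was not tested. For scale, 36.4% of all genes were called lower and 32.6% higher with Pcf11 knockdown. With cbc knockdown the shares were 37.8% lower and 36.3% higher, or 27% and 47.3% at equal CPM. Called counts of spermatocyte markers, and of spermatogonial markers with cbc knockdown, lay near these shares and do not by themselves mark a shift. Muscle sheath markers were lower for 10 of 10 genes in each knockdown, with a summed level of 895 and 897 CPM in the controls, 314 with Pcf11 knockdown and 576 and 453 with cbc knockdown. Of 9 somatic cyst and hub markers 5 were lower in the Pcf11 library, and 6 were lower and 1 higher in the cbc libraries, and they summed to 246 and 246 CPM in the controls, 136 with Pcf11 knockdown and 167 and 157 with cbc knockdown. Of 4 haemocyte markers 3 were lower in the Pcf11 library and 2 in the cbc libraries, while NimC1 was higher in both (1.42 and 1.88). They summed to 205 and 240.0, 40.2, and 76.6 and 64.3 CPM in the same order, of which Pxn alone made up 163 and 188, 16.5, and 49.2 and 30.1 CPM. The 9 spermatogonial markers summed to 378 and 379, 627, and 536 and 571 CPM, with 3 higher and 6 lower in the Pcf11 library and 3 of each in the cbc libraries. The 3 higher in each knockdown were mei-P26 (62.0 and 57.1, 172, and 137 and 144 CPM), bgcn (86.5 and 91.7, 195, and 113 and 125) and stai (131 and 123, 214, and 208 and 236). The other 6, among them vas, aub and zpg, were lower in the Pcf11 library, so the raised sum does not describe the whole list. Spermatocyte markers, 13 genes, summed to 3756 and 3502, 3498, and 1719 and 1740 CPM, with 6 lower and 4 higher in the Pcf11 library and 5 lower and 3 higher in the cbc libraries, or 3 lower and 6 higher at equal CPM. In the controls most of that sum was Mst87F, and the other 12 genes summed to 669 and 699.9, 1032, and 872 and 961 CPM, above the controls in each knockdown library. Late spermatid markers, 12 genes, summed to 5646 and 5329, 4790, and 1955 and 2053 CPM, with 1 lower and 8 higher in the Pcf11 library and 9 lower and 3 higher in the cbc libraries. Without scpr-C, at 2409 and 2255, 82.4, and 11.8 and 8.87 CPM, the other 11 summed to 3237 and 3074, 4708, and 1943 and 2044 CPM, so the Pcf11 library then lay above the controls. Each germline marker list thus had counts in every library, though scpr-C was far lower in each knockdown library than in the controls. Fat body markers (6 genes) summed to 6.92 and 7.24, 25.5, and 36.0 and 45.3 CPM, with 5 higher in each knockdown and Yp3 lower in the Pcf11 library (-1.33). Accessory gland markers (10 genes) summed to 92.0 and 233, 118, and 319 and 265 CPM, with 1 lower in the Pcf11 library and 5 higher in the cbc libraries. None of the listed markers with a matching symbol was at 0 in all libraries, which for those tested follows from the filter on low counts.

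The libraries of 1 genotype also shifted against each other in the same set of genes. Control library 2 was higher than control library 1 for 73 of 82 members, by a median of 0.09 on the log2 scale, and cbc library 2 was lower than cbc library 1 for 80 of 82, by a median of -0.23. Over all genes these medians were 0.00 and 0.02. The chi-square per degree of freedom between libraries was 168 and 72.6 over the members, beside 55.4 and 8.18 over all genes. The members thus differed between replicates by more than counting noise. This statistic used library totals without TMM scaling and rises with the count of a gene. Its higher value for the highly expressed members therefore does not mark them as more variable than other genes. For the members the shift between the cbc libraries thus stands beside a median cbc change of -0.32 and a median Pcf11 change of -0.90.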

How the data were processed

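Polyadenylated RNA was measured in whole testes of 3 genotypes, and gene counts of 5 of the 6 libraries were used, since only splice junctions of Pcf11 library 1 were held here and these were not used. Tools listed in the submitters' processing notes are STAR, Trim Galore, deepTools and SAMtools, with BDGP6 and dm6 as builds and with versions and annotation release not given in the sources used here. The authors deposited raw counts for each gene, in the layout of STAR's gene counter, which counts uniquely mapped reads, and the sense strand column was used because the kit is directional per the labels. Reads in no gene (1.35% to 2.86% of uniquely mapped reads) or in more than 1 gene (4.45% to 4.88%) stayed out of library sizes and tests. Symbols and positions came from an Ensembl BDGP6 annotation, in which 17710 of 17807 identifiers were found.

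The 13960 genes reaching 10 counts in 2 or more libraries were fitted with edgeR 4.0.16 in R 4.3.3 (quasi-likelihood test, TMM scaling, genotype as the only term, 2 residual and 9.33 prior degrees of freedom, common dispersion 0.00687). Tests were two-sided with Benjamini-Hochberg adjustment over all genes and a threshold of 0.05, and the procedure was tested on simulated counts. CPM are counts per 1e+06 of the TMM-scaled library total, and levels per kilobase divide by annotated exon length. In the windows, genes of equal control CPM lie within 0.5 log2 of a member. A second fit took its TMM factors from the 2098 other genes between the 5th and 95th percentile of the members' control CPM. Alternatives were DESeq2 1.42.0, other scalings and filters, counts without regard to strand, replicate blocks and each library left out. Samples were not paired by replicate number in the main fit. The deviations of same-numbered control and cbc libraries had a correlation of -0.13 over 10599 genes. That shows no shared deviation but, with 2 libraries per group, cannot tell whether they were prepared in pairs.

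Members named are the 5 lowest and 5 highest changes per comparison with control and 4 each way between knockdowns, among those past the threshold whose libraries lay on 1 side, the 5 highest and 5 lowest per kilobase, those with a listed role and those not tested. Members and lists were chosen with earlier results of these data known. List names with no matching symbol were eIF5A, CG7637, nop14, Noc4, RpI1, RpI135, RpI12, Taf1B, Tor, nos, rye and Acp70A. No sequence of promoters or proteins was used here.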

Additional observations from a re-analysis of the deposited data

How the results depend on the processing

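Between 76 and 82 members were called lower in the Pcf11 library under the alternatives run, and all 82 stayed below genes of equal control CPM with other window widths, library totals and each other library left out. The Pcf11 library itself could not be left out of that comparison. A changed scaling shifts a member and its window alike, so library totals could hardly alter these gaps. Leaving out a cbc library changes neither the Pcf11 counts nor the control counts. These settings therefore add little to the result at equal control CPM. The Pcf11 median was -0.75 with DESeq2 and with RLE size factors, -1.18 with scaling on genes of equal control CPM and -1.18 with library totals. The cbc result depended on the scaling, since at equal CPM 22 members were lower, 21 higher and the median -0.0286, and with library totals 27 were lower, 14 higher and the median -0.0712. Between the knockdowns the median difference was 0.49 with DESeq2 and with RLE size factors, 1.20 at equal CPM, 1.17 with library totals and 0.46 with only the groups compared in the fit. The members lower there numbered 3 with DESeq2 and with only the groups compared, 2 with RLE size factors and with no filter on low counts, and 0 at equal CPM and with library totals. Without regard to strand the share of counts in the Pcf11 library was 1.04%.

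Leaving out 1 library at a time gave 39 to 56 calls for cbc, 79 to 80 for Pcf11 and 66 to 77 between the knockdowns, medians of -0.44 to -0.22, -0.97 to -0.88 and 0.52 to 0.75, and 28 to 50 members below genes of equal control CPM for cbc. Members called higher numbered 2 to 4 for cbc, and members called lower between the knockdowns 0 to 2. The replicate block gave 51 lower and 3 higher members for cbc (median -0.32), 78 lower for Pcf11 (-0.88), and 69 higher and 1 lower between the knockdowns (0.60). Because the correlation of same-numbered libraries was negative, the crossed pairing was added after seeing the data, and that block gave 56 lower and 4 higher for cbc, 80 lower for Pcf11 and 78 higher between the knockdowns.

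Named cbc changes that took the other sign at equal CPM were RpL10Ab 0.0108, RpL17 0.0405, RpL19 0.28, RpL24 0.27, RpL26 0.22, RpL27A 0.26, RpL36 0.22, RpL37-1 0.0065, RpL4 0.0509, RpS12 0.21, RpS2 0.0791, RpS27A 0.0502 and RpS28b 0.0250. With library totals they were RpL19 0.24, RpL24 0.22, RpL27A 0.22, RpL4 0.0076, RpS2 0.0357 and RpS27A 0.0075. Between the knockdowns RpL41 was 0.45 at equal CPM and 0.42 with library totals, and RpS14b 0.23 and 0.20. A changed scaling adds 1 constant to every gene, which by construction sets these signs.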

Other observations

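Between the control libraries 9 members were lower in library 2, while 73 were higher, and these 9 were named after their values were seen. RpL38 differed by -0.34 on the log2 scale, RpL15 by -0.18, RpS3A by -0.12, RpL21 by -0.06, RpL40 by -0.04 and RpL10 by -0.03. RpS28b, RpS15Aa and RpS14b differed by -0.0096, -0.0070 and -0.0036. These differences have no replicate of their own.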
